A study of Mus musculus with 9 samples.

Results

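Phospho1, Abi3, Gngt2 and Zfp652 are neighbours on mouse chromosome 11. Annotated transcripts of Phospho1, Abi3 and Zfp652 overlap one another, and of these genes Gngt2 overlaps Abi3 alone. These 4 genes were taken by symbol from the 24539 genes of a count table, and all 4 passed the filter on low counts with 16745 genes in all. The genes were chosen by the measured fold changes of Phospho1 and Abi3 between KO and WT in cold, so values of that comparison are given below as description and without a test. The table came from RNA-seq of inguinal white adipose tissue (iWAT) of 9 C57BL/6 mice on chow, with 1 library per mouse. WT mice were Tet1 f/f without Cre, and the Adi-Tet1KO mice (KO) carried Tet1 f/f with Fabp4-Cre, so the floxed allele was shared by all mice. At RT there were 2 WT mice (1788 and 1810) and 2 KO mice (1786 and 1814), while 3 WT mice (1773, 1783 and 1812) and 2 KO mice (1781 and 1782) had been kept at 4 °C for 4 h (cold). The Fabp4 promoter that drives Cre is also active in macrophages. The labels describe frozen tissue while the methods describe fractionated adipocytes, and no source used here gives the age of the mice.

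PHOSPHO1 is a phosphatase that splits phosphocholine and phosphoethanolamine, the head groups of the main membrane phospholipids. It is best known from cartilage and bone, where it releases phosphate inside matrix vesicles at the start of mineralization, and it is also made by thermogenic fat. ABI3 is a member of the Abl interactor family that sits in the WAVE complex, which switches on the actin-branching Arp2/3 complex, and it is typical of blood-derived cells such as macrophages. GNGT2 is a gamma subunit of heterotrimeric G proteins, known from the transducin of cone photoreceptors and present in leukocytes. ZFP652 is a zinc finger repressor of transcription that works with corepressors of the ETO family.

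On GRCm38, the assembly of mm10, GENCODE vM21 places Zfp652 at chr11:95712673-95835115 and Phospho1 at chr11:95824499-95832140, both on the plus strand. Abi3 lies at chr11:95830074-95842476 on the minus strand, and Gngt2 at chr11:95837216-95845734 on the plus strand. Phospho1 and Abi3 therefore converge, and they overlap over 2067 bases at their 3′ ends. The last exon of Phospho1 (chr11:95830551-95832140, 1590 bases) lies whole inside the last exon of Abi3, which has 2803 bases. It holds 756 of the 801 coding bases of Phospho1 and 0 coding bases of Abi3, so the protein-coding part of Phospho1 is read from the strand opposite to the 3′ UTR of Abi3. These stretches of 30 bases show the shared exon as each gene reads it, with its first 3 bases on the plus strand (in the upper pair) or the stop codon of Phospho1 (in the lower pair) in capitals on both strands.
Shared exon, start, Phospho1 strand (chr11:95830551-95830580, plus): GACggcaggatggctgcgccgggcgcgcct
Shared exon, start, Abi3 strand (chr11:95830551-95830580, minus): aggcgcgcccggcgcagccatcctgccGTC
Phospho1 stop codon, Phospho1 strand (chr11:95831280-95831309, plus): catctgcaacaggtgctgaagatgtgtTGA
Phospho1 stop codon, Abi3 strand (chr11:95831280-95831309, minus): TCAacacatcttcagcacctgttgcagatg
The reverse complement of all 1590 bases was found in the main Abi3 transcript.

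The lengths that the authors gave the genes could be read back from their RPKM values, which divide counts by length. The smallest whole-number lengths that fitted all 13413 genes with over 50 counts in every library, within a tolerance of 0.01 bases, were 1910 bases for Phospho1 and 4075 for Abi3. Gngt2 came to 850 bases and Zfp652 to 2665. The length of Phospho1 equals that of its main GENCODE transcript, and that of Abi3 differs by 2 bases from the 2 main Abi3 transcripts joined (4073 bases), so the shared exon was part of both counted genes. It makes up 83.2% of the counted length of Phospho1 and 39.0% of that of Abi3. The length of Zfp652 differs by 2 bases from its main transcript (2663 bases), which does not share exonic bases with Phospho1. The 1818 exonic bases that Zfp652 shares with Phospho1 belong to 1 of its 4 transcripts alone. Gngt2 shares 234 exonic bases with Abi3, through 3 of its 7 transcripts, and 0 with Phospho1. No source used here gives the strand and overlap settings of the counting. Elsewhere among the counts, 28 groups of genes held identical values in every library (at least 90 counts in all). Of the 18 groups with a single GENCODE position for each gene, 2 share exons, Mfrp with C1qtnf5 and Snrpn with Snurf, both on the same strand. The number sharing exons on opposite strands was 0. Genes that share only part of their length, as Phospho1 and Abi3 do, need not hold identical counts. This search therefore cannot show how their shared exon was counted. The other placed groups, such as Hba-a1 with Hba-a2, do not share exons. Counts of Phospho1 and Abi3 are uncertain, since reads of the shared exon may have been entered for either gene, for both or for neither.

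**Figure D1:**
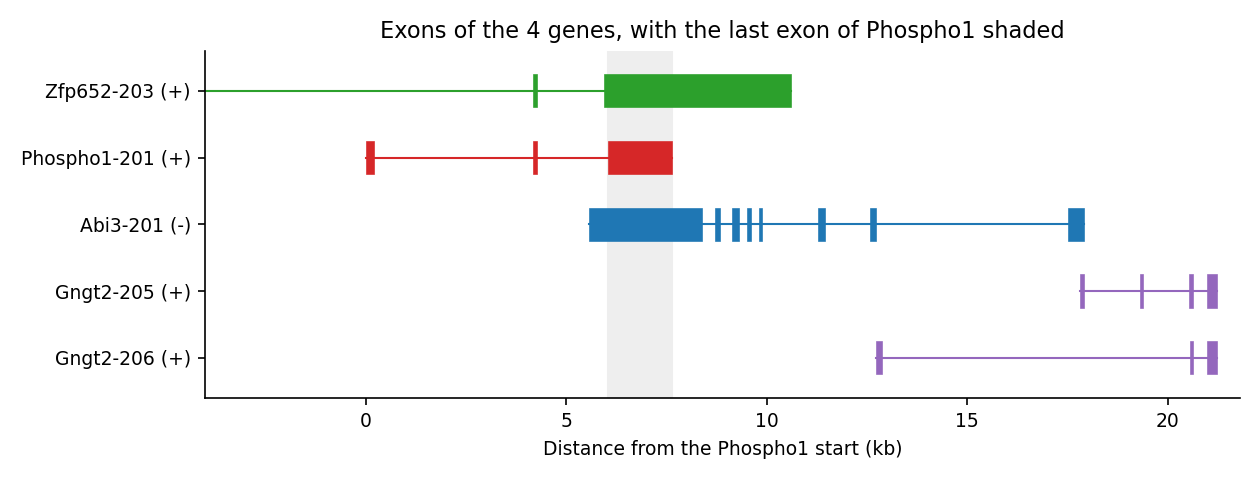
Exons (boxes) and introns (lines) of GENCODE vM21 transcripts by distance from the Phospho1 start in kb, with the strand in brackets and the last exon of Phospho1 shaded. The 1590 bases of this exon lie inside the last exon of Abi3. Gngt2 exons lie within and beyond the far end of Abi3, and the Zfp652 transcript drawn is the 1 of 4 whose exons meet those of Phospho1.

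RefSeq (GRCm38.p6) gives a promoter sequence for 2 of the 4 genes, Phospho1 and Zfp652. The 250 bases before the RefSeq start of Phospho1 are shown because this gene had the widest range over the libraries of the 4, with motif matches in capitals.
Phospho1 promoter (chr11:95824250-95824499, plus): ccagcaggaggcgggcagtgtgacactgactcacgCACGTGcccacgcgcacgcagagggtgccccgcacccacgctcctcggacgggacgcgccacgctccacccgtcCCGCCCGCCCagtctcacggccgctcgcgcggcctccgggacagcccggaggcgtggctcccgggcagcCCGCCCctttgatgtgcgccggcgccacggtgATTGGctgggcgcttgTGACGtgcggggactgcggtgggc
It holds 34 CpG sites, against a median of 6 over 32851 promoters of the same length, and 96.5% of these hold fewer. Both strands were searched for 6 motifs. The half-site of the cAMP response element, TGACG, starts 24 bases before the start site and is held by 17.8% of all promoters. A CCAAT box (CCAAT, in 33.8% of promoters) matched on the minus strand at 40 bases, the GC box (GGGCGG, 32.7%) matched on the minus strand at 72, 137 and 141 bases with the last 2 overlapping, and the E-box (CACGTG, 6.02%) matched at 215 bases. The nuclear receptor half-site AGGTCA (14.0%) and the TATA box TATAAA (12.4%) had 0 matches in this window.

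Libraries held 47605902 to 56292251 counts. The housing of mice 1781 and 1786 is given differently by the sample titles (1781 at RT, 1786 in cold) and by the column names of the table (the reverse), and the column names were followed. Tet1 was not lower in the libraries labelled KO, at 5.30 to 12.3 CPM against 3.87 to 5.33 CPM in WT, so comparisons of genotype are comparisons of libraries labelled KO and WT. The authors report by qPCR that Tet1 was strongly reduced in purified KO adipocytes and not significantly changed in the stromal-vascular fraction. Counts over the whole gene in these libraries are a different measure and do not test that knockout. Markers of adipocytes summed to 9890 to 21100 CPM and markers of fibroblasts and progenitors to 4110 to 6400 CPM, so other cells than adipocytes were present. Keratin-led markers of mammary epithelium summed to 1390 to 2160 CPM, and those of lymphocytes, erythroid cells and skeletal muscle to 11.7 to 68.3, 190.0 to 1160 and 22.5 to 80.1 CPM. Nothing in the labels says more of the replicates than that they were separate mice.

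Phospho1 and Abi3 stood higher in each KO library than in any WT library, and Gngt2 and Zfp652 did not. The cold libraries in this description had served to choose Phospho1 and Abi3, and how many other genes separate this way was not counted. At RT alone, both KO libraries lay above both WT libraries for 19.8% of all genes tested. Levels are CPM, counts scaled to the TMM-normalized library size. Phospho1 had 23.0 and 27.6 CPM in WT at RT, 19.7, 23.0 and 26.9 CPM in WT in cold, 48.3 (mouse 1786) and 61.9 CPM (mouse 1814) in KO at RT, and 113 (mouse 1781) and 104 CPM (mouse 1782) in KO in cold. Its group means rose from WT in cold (23.2 ± 3.63 CPM, SD, n = 3) and WT at RT (25.3 ± 3.24 CPM, SD, n = 2), which overlap, to KO at RT (55.1 ± 9.65 CPM, SD, n = 2) and KO in cold (108 ± 6.91 CPM, SD, n = 2), which do not. The ratio of its highest to its lowest library was 5.76. The KO mice whose housing is not in dispute, 1814 at RT and 1782 in cold, stood in the same order as the group means.
Abi3 had 33.1 and 35.5 CPM in WT at RT, 28.3, 31.7 and 38.7 CPM in WT in cold, 56.4 and 68.4 CPM in KO at RT, and 118 and 108 CPM in KO in cold. The order of its groups was the same, with overlapping ranges in both WT groups and separate ranges above them. The ratio of its highest to its lowest library was 4.16.
Gngt2 had 10.0 and 13.2 CPM in WT at RT, 13.0, 13.7 and 15.9 CPM in WT in cold, 12.1 and 12.7 CPM in KO at RT, and 11.7 and 13.9 CPM in KO in cold. Zfp652 had 20.9 and 23.3 CPM in WT at RT, 23.7, 25.9 and 28.2 CPM in WT in cold, 20.8 and 25.4 CPM in KO at RT, and 24.7 and 28.1 CPM in KO in cold. Neighbouring groups overlapped throughout the order of both genes, and their highest libraries were 1.59 and 1.36 times their lowest.

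**Figure D2:**
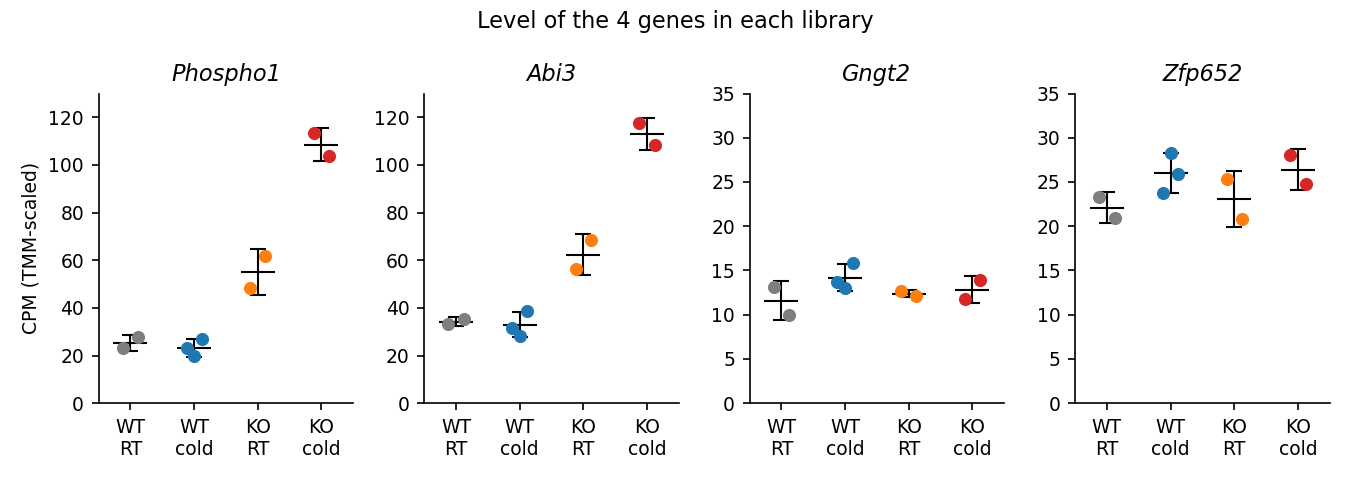
CPM of each gene (y axis, on a wider scale for Phospho1 and Abi3) in the 4 groups (x axis). Points are libraries and bars are the mean ± SD. Phospho1 and Abi3 lie near 20 to 40 CPM in the 5 WT libraries and reach 104 to 118 CPM in KO in cold, while Gngt2 and Zfp652 overlap between groups.

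Per unit of length the genes are set beside each other in the RPKM of the authors. Those of Phospho1 and Abi3 carry the uncertainty of the shared exon, and the length of Gngt2 was not matched to a GENCODE transcript. The order of the genes is therefore a description of the deposited values. In WT at RT Gngt2 (13.1 ± 2.95 RPKM, SD, n = 2) and Phospho1 (12.7 ± 1.19 RPKM, SD, n = 2) had the highest levels and overlapped, above Abi3 (8.06 ± 0.126 RPKM, SD, n = 2) and Zfp652 (7.97 ± 0.889 RPKM, SD, n = 2). In KO in cold Phospho1 had 54.9 ± 8.02 RPKM (SD, n = 2) and Abi3 26.8 ± 3.79 RPKM (SD, n = 2), against 14.4 ± 0.539 RPKM for Gngt2 (SD, n = 2). As a share of the counts of the 4 genes, Phospho1 took 22.0 to 29.4% in WT libraries and 41.8 and 41.3% in KO in cold. Abi3 took 31.7 to 37.7% in WT and 43.5 and 43.2% in KO in cold. Any read entered for both genes is in both shares.

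Whether the genes differ between KO and WT at RT was asked in libraries outside the comparison in cold that led to them. The authors had already listed Phospho1 and Abi3 as higher in KO at RT, so this result was known beforehand. By the sample titles, KO mouse 1786 would be a cold library. Phospho1 was 2.17-fold higher in KO (log2 fold change 1.12, SE 0.18) and Abi3 1.82-fold higher (log2 fold change 0.86, SE 0.16), with 2 of 2 KO libraries above 2 of 2 WT libraries for both, a separation found for 19.8% of all genes tested. Neither passed the test over all genes, with an adjusted p of 0.222 for Phospho1 and 0.321 for Abi3 by edgeR's quasi-likelihood test. By unadjusted p they ranked 14 and 27 of the 16745 genes. Gngt2 (log2 fold change 0.097, SE 0.18) and Zfp652 (0.063, SE 0.14) had an adjusted p of 0.917 and 0.935 in the same test. Gngt2 turned to -0.087 without WT mouse 1810, and Zfp652 to -0.015 without the same mouse and to -0.079 without KO mouse 1786. Of the 4 genes 0 were called (adjusted p under 0.05 and fold change above 1.5), where 0.0358% of all genes were called higher and 0% lower. At an unadjusted p under 0.05, 2 of the 4 were higher, as were 2.68% of all genes. DESeq2 called the same 2, where it called 0.364% of all genes higher, with an adjusted p of 5.11e-05 for Phospho1 and 0.00149 for Abi3. Leaving out each mouse in turn kept Phospho1 at a log2 fold change of 0.93 to 1.30 (adjusted p = 0.197 to 0.700, edgeR's quasi-likelihood test) and Abi3 at 0.72 to 1.00 (adjusted p = 0.197 to 0.873). With mice 1781 and 1786 housed as in the sample titles the values were 1.79 (SE 0.38, adjusted p = 0.471) and 1.44 (SE 0.33, adjusted p = 0.598).

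In WT mice none of the 4 genes was called between cold and RT. Phospho1 had a log2 fold change of -0.13 (SE 0.16) and Abi3 of -0.059 (SE 0.15), while Gngt2 had 0.29 (SE 0.16) and Zfp652 0.23 (SE 0.13). The adjusted p were 0.792, 0.906, 0.490 and 0.498 by edgeR's quasi-likelihood test. Phospho1 turned to 0.0098 without WT mouse 1810 and Abi3 to 0.047 without WT mouse 1773. The test called 0 of the 4, where 0.197% of all genes were called higher and 0.173% lower. The number of these 4 genes at an unadjusted p under 0.05 was 0, and DESeq2 called 0.

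In KO mice Phospho1 and Abi3 stood higher in cold than at RT. Both cold libraries had served to choose the genes, so these values are a description without a test. Phospho1 was 1.97-fold higher (log2 fold change 0.98, SE 0.18) and Abi3 1.81-fold (0.86, SE 0.16). Gngt2 had a log2 fold change of 0.049 (SE 0.18), which turned to -0.079 without KO mouse 1782, and Zfp652 of 0.19 (SE 0.14). Of all genes 0.191% were called higher and 0.143% lower here, and nothing is read from this for the 4 genes. With mice 1781 and 1786 housed as in the sample titles the direction turned, to a log2 fold change of -0.21 for Phospho1 and -0.18 for Abi3. The RT libraries are also those of KO against WT at RT. The difference between the cold responses of KO and WT was not tested, since it rests on the libraries that chose the genes.

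In cold, the comparison that led to Phospho1 and Abi3, their log2 fold changes of KO over WT were 2.23 (SE 0.16) and 1.78 (SE 0.14), or 4.68-fold and 3.44-fold. Gngt2 stood at -0.15 (SE 0.16) and Zfp652 at 0.023 (SE 0.13). Of all genes 0.0776% were called higher and 0% lower here, and nothing is read from this for the 4 genes. With the housing of the titles the values of Phospho1 and Abi3 were 1.71 and 1.32.

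Abi3 followed Phospho1 closely from library to library. The ratio of Abi3 to Phospho1 CPM was 1.28 and 1.44 in WT at RT, 1.38, 1.44 and 1.44 in WT in cold, 1.17 and 1.10 in KO at RT, and 1.04 and 1.05 in KO in cold. Over the 9 libraries Abi3 rose by 0.943 CPM per CPM of Phospho1 (SE 0.0122), from an intercept of 10.7 CPM, and no library lay farther than 2.62 CPM from the line. The slope was 0.940 to 0.950 without each mouse in turn. Among the KO libraries alone it was 0.947 (SE 0.00907) and among the WT libraries alone 1.11 (SE 0.27), a split chosen after seeing the data. If reads spread evenly over the counted bases and those of the shared exon were entered for both genes, 1 more count of Phospho1 from its own transcript would bring 0.832 counts to Abi3, and reads from Abi3 transcripts alone would bring 2.56 counts of Abi3 per count of Phospho1. Which gene the reads of the shared exon came from was not tested.
What is left of Abi3 depends on how much of Phospho1 is taken off. With 0.832 of the Phospho1 CPM taken off, Abi3 kept 12.5 and 13.9 CPM in WT at RT, 11.9 to 16.3 CPM in WT in cold, 16.3 and 16.9 CPM in KO at RT, and 22.1 and 23.4 CPM in KO in cold. With all of it taken off, 7.87 and 10.0 CPM were left in WT at RT, 8.65 to 11.8 CPM in WT in cold, 6.48 and 8.17 CPM in KO at RT, and 4.44 and 4.78 CPM in KO in cold. KO in cold was thus the highest group on the first reckoning and the lowest on the second, and a change of Abi3 apart from Phospho1 has no stable direction in these counts.

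**Figure D3:**
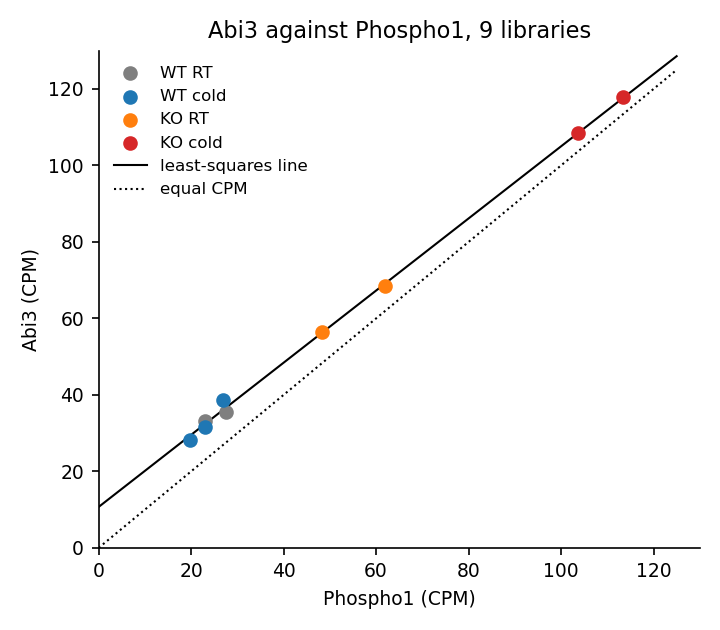
Abi3 CPM (y axis) against Phospho1 CPM (x axis) in the 9 libraries, coloured by group, with the least-squares line (slope 0.943) and the line of equal CPM (dotted). All libraries lie within 2.62 CPM of the fitted line, which nears the line of equal CPM as Phospho1 rises.

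The likeness of the 4 genes over the 9 libraries is given as a description, since libraries share their 4 groups. On log2 CPM, Phospho1 and Abi3 had a Pearson's r of 0.998 and a Spearman's rho of 0.983, and r was 0.959 after the group means were taken off, so they also moved together among mice of one group. Gngt2 had an r of -0.14 with Phospho1 and -0.096 with Abi3, and Zfp652 of 0.11 and 0.15. With group means taken off, Zfp652 had an r of -0.60 with Phospho1 and -0.45 with Abi3, and Gngt2 of -0.083 and 0.15. Gngt2 and Zfp652 had an r of 0.43 with each other, and 0.082 within groups.
Phospho1 and Abi3 had an r of 0.998 with each other, so the other genes most like them over the 9 libraries were bound to be largely shared. Those of Phospho1 were Abi3, Epha8, Dagla, Cfap44 and A530050N04Rik (r of 0.962 to 0.964 after Abi3), and those of Abi3 were Phospho1, A530050N04Rik, Dagla, Epha8 and Slc27a2 (0.957 to 0.966 after Phospho1). Dagla, a diacylglycerol lipase, had means of 11.3 CPM in WT at RT, 18.4 in KO at RT, 12.4 in WT in cold and 33.9 CPM in KO in cold. Slc27a2, an acyl-CoA synthetase of very long-chain fatty acids, had 1.29, 7.85, 2.32 and 29.4 CPM. Epha8 and Cfap44 stayed at or under 0.266 CPM in the mean of every group. After group means were taken off, r with Phospho1 was 0.28 for Dagla and 0.67 for Epha8, lower than the 0.959 of Abi3, whose counted length includes the last exon of Phospho1. The genes most like Gngt2 were St6galnac2, Plcg1, Dync1i2, Sdpr and Wwtr1 (0.897 to 0.933), and those most like Zfp652 were Tmem19, Sertad2, Camsap3, Dstn and 1700034H15Rik (0.953 to 0.988).

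None of the other genes tested in the neighbourhood was called. Within 250 kb of the outer ends of the 4 genes, GENCODE vM21 lists 26 more genes, of which 14 are in the table and 11 were tested. B130006D01Rik and Gip had 0 counts in every library, and Mir3063 had 4 in all. Of the 11 tested, 0 were called in any of the comparisons by edgeR's quasi-likelihood test, where 0 to 0.197% of all genes were called in either direction. Their median log2 fold change of KO over WT at RT was -0.10 with 3 of 11 positive, against a median of -0.0052 over all genes, and in WT in cold it was -0.062 with 3 of 11 positive, against -0.0066 over all genes. Next to Zfp652 lies Phb, the mitochondrial scaffold protein prohibitin, with a log2 fold change of 0.075 (SE 0.18) at RT. On the far side of Gngt2, 4833417C18Rik had 0.47 (SE 0.59) and B4galnt2, a glycosyltransferase, 0.29 (SE 0.59), both at a mean under 0.4 CPM in every group. B4galnt2 had its group means in the same order as Phospho1 and Abi3, at 0.147 CPM in WT in cold, 0.258 in WT at RT, 0.316 in KO at RT and 0.394 CPM in KO in cold, with a log2 fold change of KO over WT in cold of 1.40 (SE 0.55). It had 124 counts over all 9 libraries, and WT and KO overlapped at RT. Spop, Snf8 and Ube2z lay within -0.10 to -0.056, Nxph3 at -0.83 (SE 0.68), Zfp652os at -0.75 (SE 0.61) and Igf2bp1 at -1.39 (SE 1.07). Atp5g1, a subunit of the ATP synthase ring, had means of 63.4 CPM in WT and 46.1 CPM in KO at RT (log2 fold change -0.46, SE 0.14, adjusted p = 0.593 by edgeR's quasi-likelihood test).
Ngfr, the p75 neurotrophin receptor, had the lowest value at RT, -2.45 (SE 0.67, adjusted p = 0.575 by edgeR's quasi-likelihood test). It had 56.0 CPM in WT mouse 1810 and 13.7 CPM in WT mouse 1788, against 3.81 to 11.8 CPM in the 7 others, so 1 WT library stood far above the rest.

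**Figure D4:**
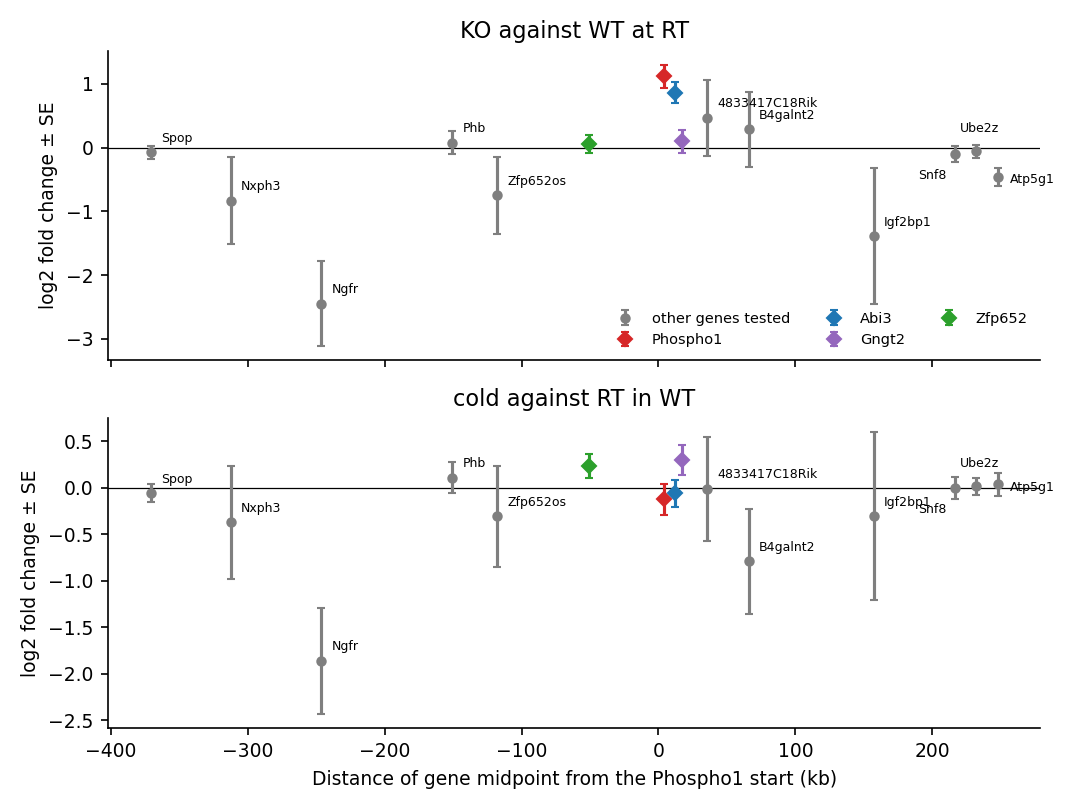
Log2 fold change ± SE (y axis) of KO over WT at RT (upper) and of cold over RT in WT (lower) for the 4 genes (diamonds) and the 11 other genes tested within 250 kb (circles), by the distance of the gene's midpoint from the Phospho1 start in kb. At RT Phospho1 and Abi3 stand at 1.12 and 0.86 with Gngt2 and Zfp652 near 0, and in WT in cold all 4 lie between -0.13 and 0.29.

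Markers of thermogenic fat, like Phospho1 and Abi3, stood higher in KO. The 11 markers of beige and brown fat summed to 111 and 129 CPM in WT at RT, 386 to 546 CPM in WT in cold, 582 (mouse 1786) and 1180 CPM (mouse 1814) in KO at RT, and 1780 and 2500 CPM in KO in cold. The authors list most of these markers as higher in KO from the same mice, so their direction in KO was known when the list was made. At RT 11 of 11 had a positive log2 fold change of KO over WT, with a median of 2.17. Of the 11, 2 were called higher, where 0.0358% of all genes were called higher. These were Cpt1b, which admits fatty acids to mitochondria (log2 fold change 3.33, SE 0.32, adjusted p = 0.0321), and Cox7a1, a cytochrome oxidase subunit (2.19, SE 0.23, adjusted p = 0.0373), both by edgeR's quasi-likelihood test. Ucp1, the uncoupling protein, had means of 8.81 CPM in WT and 442 CPM in KO at RT, and 176 and 1270 CPM in cold. In WT mice 7 of the 11 markers were positive and 4 negative in cold. Of these, 2 were called higher, where 0.197% of all genes were called higher. Ucp1 rose (log2 fold change 4.32, SE 0.68, adjusted p = 0.0495 by edgeR's quasi-likelihood test), as did Dio2, the deiodinase that activates thyroid hormone (3.26, SE 0.41, adjusted p = 0.0250), while Cox7a1 had 0.16 (SE 0.21). Most of the higher marker sum of WT in cold came from these 2 genes. Without Ucp1 and Dio2, a split chosen after seeing the data, the other 9 markers summed to 95.3 and 96.8 CPM in WT at RT, 101 to 153 CPM in WT in cold, 267 and 475 CPM in KO at RT, and 475 and 530 CPM in KO in cold. How far these cells account for the levels of Phospho1 and Abi3 was not tested, and in bulk libraries more cells of a type cannot be told apart from more RNA per cell.

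**Figure D5:**
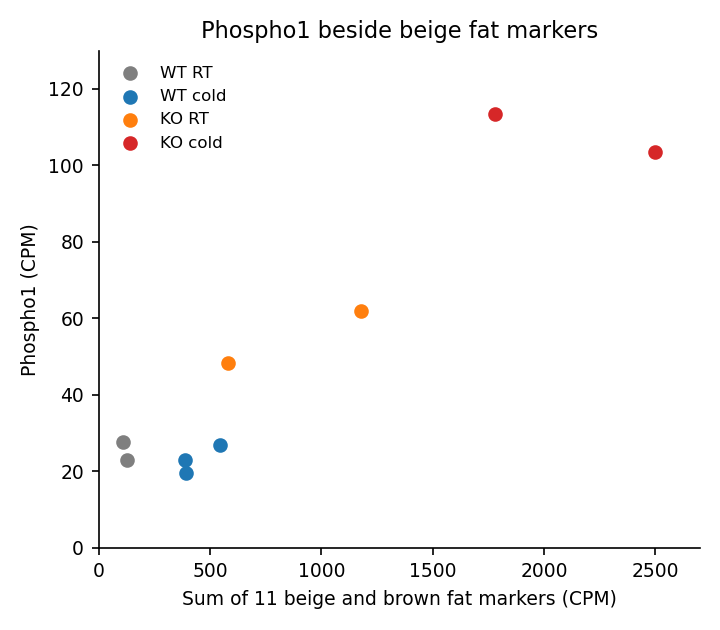
Phospho1 CPM (y axis) against the summed CPM of 11 markers of beige and brown fat (x axis) in the 9 libraries, coloured by group. WT in cold lies at 386 to 546 CPM of markers with Phospho1 at 19.7 to 26.9 CPM, and KO in cold at 1780 and 2500 CPM with Phospho1 at 113 and 104 CPM.

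Macrophage markers went the other way at RT, although Abi3 and Gngt2 are genes of such cells. Their 15 genes summed to 1300 to 1710 CPM in WT and 761 to 1010 CPM in KO at RT, and to 1140 to 1480 and 916 to 1480 CPM in cold. At RT 13 of 15 had a negative log2 fold change (median -0.83), 8 with an unadjusted p under 0.05 (4.72% of all genes were lower at that level). Of the 15, 0 were called, where 0.0358% of all genes were called higher and 0% lower. Values at RT were, for Siglec1, -1.39 (SE 0.39), for Fcgr1 -1.56 (SE 0.44) and for Itgam -1.23 (SE 0.35). In WT in cold 12 of 15 were negative and 3 positive (median -0.21), with 2 lower and 1 higher at an unadjusted p under 0.05 (7.13% and 6.04% of all genes). The 1 called, where 0.197% of all genes were called higher, was Mertk (log2 fold change 1.04, SE 0.12, adjusted p = 0.0216 by edgeR's quasi-likelihood test). The part of macrophages in the levels of Abi3 and Gngt2 was not tested. Cartilage and bone markers, which go with Phospho1 at its best-known site, were near absent at 0.157 to 0.604 CPM in sum, and Ibsp, the bone sialoprotein, had 0 counts in every library.

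None of the enzymes and carriers around Phospho1 was called at RT or in WT in cold. Calls were rare among all genes (0.0358% higher and 0% lower at RT, 0.197% and 0.173% in WT in cold), so nothing is read from this. Of 37 genes of phosphocholine and phosphoethanolamine turnover (Phospho1 included), 34 were tested and 0 were called at RT or in WT in cold by edgeR's quasi-likelihood test. At an unadjusted p under 0.05, 4 were higher at RT, the chosen gene Phospho1 among them, and 0 lower. Of all genes, 2.68% were higher and 4.72% lower there. In WT in cold 2 were higher and 1 lower, where 6.04% of all genes were higher and 7.13% lower. Their median log2 fold change was 0.040 at RT and -0.0097 in WT in cold, near the medians over all genes. Chkb, a choline kinase that makes phosphocholine, had means of 29.4 CPM in WT and 41.8 CPM in KO at RT (log2 fold change 0.51, SE 0.16, adjusted p = 0.598), and it lies next to Cpt1b in the genome. The choline transporter-like genes Slc44a3 and Slc44a1 had 0.41 (SE 0.15) and -0.079 (SE 0.088).
Of 11 genes of matrix vesicle mineralization (Phospho1 included) 10 were tested, and 0 were called at RT or in WT in cold. At RT 4 of 10 were positive (median -0.097), with 2 higher, Phospho1 again among them, and 0 lower at an unadjusted p under 0.05. In WT in cold 6 of 10 were positive (median 0.075), with 2 higher and 1 lower at the same level. The shares of all genes at that level are those given for the turnover genes. Alpl, the alkaline phosphatase that acts beside PHOSPHO1 in vesicles, had means of 42.6 CPM at RT and 60.6 CPM in cold in WT (log2 fold change 0.51, SE 0.12, adjusted p = 0.140), and -0.14 (SE 0.13) for KO over WT at RT. Ank, a carrier of pyrophosphate, had 73.1 and 39.8 CPM (-0.88, SE 0.19, adjusted p = 0.111), and Slc20a1, a phosphate carrier, had 0.61 (SE 0.18) for KO over WT at RT. All p-values of these lists are by edgeR's quasi-likelihood test.

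Among the partners of Abi3, Gngt2 and Zfp652 no gene was called at RT or in WT in cold. Calls were rare among all genes (0.0358% higher and 0% lower at RT, 0.197% and 0.173% in WT in cold), so nothing is read from this. At an unadjusted p under 0.05, 2.68% of all genes were higher and 4.72% lower at RT, against 6.04% and 7.13% in WT in cold. Of the 11 genes of the WAVE complex (Abi3 included), 0 were called at RT or in WT in cold, with 1 higher and 1 lower at an unadjusted p under 0.05 at RT and 0 in WT in cold, and the median at RT was 0.0075. The 1 higher was Abi3. Nckap1l, the WAVE subunit of blood cells, had means of 31.1 CPM in WT and 20.1 CPM in KO at RT (log2 fold change -0.63, SE 0.23), the direction opposite to that of Abi3. Cyfip2 had 0.66 (SE 0.32) and Wasf1 -0.56 (SE 0.28) in WT in cold. Of the 10 Arp2/3 genes 9 were negative at RT (median -0.16), with 0 called and 1 at an unadjusted p under 0.05, Arpc1b at -0.35 (SE 0.12). Arpc4 and Arpc3 had -0.24 (SE 0.11) and -0.17 (SE 0.10) at RT, and Actr3b 0.67 (SE 0.25) in WT in cold.
Of 17 beta and gamma subunits of G proteins (Gngt2 included) 15 were tested, 0 were called at RT or in WT in cold, and the median at RT was 0.0025, with 1 lower at an unadjusted p under 0.05. This was Gng12, a gamma subunit with means of 354 CPM in WT and 213 CPM in KO at RT (log2 fold change -0.74, SE 0.13, adjusted p = 0.310 by edgeR's quasi-likelihood test). Gng7 had -0.59 (SE 0.16) and Gng2 0.46 (SE 0.16) in WT in cold, and Gng10 had -0.24 (SE 0.11) at RT. The transducin-type alpha subunits, Gnat2 of cones, Gnat1 of rods and Gnat3 of taste cells, were at a mean of 0.709 CPM or less in every group, and 0 of 3 were called at RT or in WT in cold. The ETO corepressors Cbfa2t3, Cbfa2t2 and Runx1t1, partners of ZFP652, had -0.084 (SE 0.15), 0.047 (SE 0.12) and 0.35 (SE 0.26) at RT, and 0 were called.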

How the data were processed

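RNA-seq of inguinal fat was analysed for 9 mice. The authors report that they aligned reads to UCSC mm10 with STAR, kept reads with a single place in the genome and removed mitochondrial reads. They report counts per gene from featureCounts, and these whole-number counts were used as deposited. Some genes at separate places, such as Hba-a1 and Hba-a2, held identical counts in every library. Reads with a single place would not be expected to give this, and the cause was not tested. The authors also deposited RPKM values, used here for levels per length and for the gene lengths behind them. No source used here gives versions, annotation, strand or overlap settings.

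All 9 libraries (47605902 to 56292251 counts, 1 column each) entered 1 fit of 4 groups with edgeR 4.0.16 in R 4.3.3 (filterByExpr, TMM, robust quasi-likelihood F test), which tested 16745 genes, with Benjamini-Hochberg adjustment over all of them. Calls needed an adjusted p under 0.05 and a fold change above 1.5. SE, an approximation, is the size of the log2 fold change over the root of F. The fit was tested on simulated data first. Likeness used log2 CPM with a prior count of 2. Positions are from GENCODE vM21 and promoters from RefSeq (GRCm38.p6), matched by symbol. Figures used Python 3.11.15 and matplotlib 3.10.9. Groups follow the column names of the table.

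The members and lists were chosen with earlier results of these data known. The named genes are the 4 members, the genes tested within 250 kb, up to 4 genes per list of the lowest unadjusted p over KO against WT at RT and cold against RT in WT, and the 5 genes of highest Pearson's r with each member. Alternatives were DESeq2 1.42.0, its size factors in edgeR, no filter, each mouse left out, both mice of conflicting labels regrouped or left out, 2 groups in the fit, CPM without TMM, a window of 100 kb and Spearman's rho.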

Additional observations from a re-analysis of the deposited data

How the results depend on the processing

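For KO against WT at RT, 6 genes were called in all. The count was 0 with only the 2 groups in the fit, 119 by DESeq2 and 0 to 6 without each mouse (0 without 1781, 1782, 1773 or 1810, 1 without 1788, 2 without 1814, 3 without 1783). For cold against RT in WT, the 62 calls became 0 under the titles' housing, 113 without mice 1781 and 1786, 104 with 2 groups, 482 by DESeq2 and 2 to 77 without each mouse (2 without 1788 or 1810, 6 without 1773, 12 without 1812, 14 without 1783). For cold against RT in KO, the 56 calls became 0 under the titles, without both mice or with 2 groups, 604 by DESeq2 and 3 to 31 without each mouse. For KO against WT in cold, the 13 calls became 24 under the titles, 27 without both mice, 101 by DESeq2 and 7 to 18 without each mouse (7 without 1783, 8 without 1773). The cause was not tested. Fits that leave 1 mouse in a group assume that it varies like the others.

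Phospho1 and Abi3 at RT were called by DESeq2 alone, at log2 fold changes of 1.13 and 0.88. For cold against RT in KO, DESeq2 gave them 0.96 and 0.84, the fit without the filter gave Phospho1 0.98, and the titles' housing turned them to -0.21 and -0.18. For KO against WT in cold the titles gave 1.71 and 1.32. Zfp652 at RT was -0.079 without both mice. Without each mouse Gngt2 at RT was -0.087 to 0.31, Zfp652 at RT -0.079 to 0.20, Phospho1 in WT in cold -0.25 to 0.0098, Abi3 in WT in cold -0.19 to 0.047 and Gngt2 in KO in cold -0.079 to 0.16. The WT-only slope, the full removal of Phospho1 and the shorter marker sum were chosen after seeing the data. The slope of Abi3 on Phospho1 was 0.946 without TMM and 1.11 in WT libraries alone. The KO minus WT difference of Abi3 after all Phospho1 CPM were taken off was -1.61 CPM at RT and -5.10 CPM in cold, against positive values with the length share taken off. Without Ucp1 and Dio2 the sum of beige and brown markers was 23.8 CPM higher in WT in cold than at RT, against 322 CPM with them. The 11 tested neighbours held 0 calls in both windows. By Spearman's rho, 2, 1, 0 and 3 of the 5 genes most like Phospho1, Abi3, Gngt2 and Zfp652 were shared. No paired analysis was possible because the mouse numbers are not shared between groups.

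With 2 or 3 mice a group and an unresolved label conflict, calls near the threshold are not firm, and strand information would be needed to separate Phospho1 from Abi3.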
